A study of Mus musculus with 48 samples.

Results

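Fabp1, Fabp3, Fabp4, Fabp5 and Fabp7 encode fatty acid binding proteins, and their transcripts were followed in the lungs of 48 adult mice. The 5 genes were taken by symbol from the 47561 genes of the deposited expression table, and all 5 were found. They were picked because of their levels by strain, injection and air in these same lungs, so differences along those lines are given as descriptions with no test. Sex was not used to pick them and was tested.

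Lung RNA was sequenced from C3H/HeN and C57Bl/6 mice (C57Bl/6N in the study's methods; C3H and C57B below), which are inbred strains, and each mouse gave 1 library. Mice received a single intraperitoneal injection of saline or of aurothioglucose (ATG) at 25 mg/kg, and were then kept for 96 h in room air or in hyperoxia, meaning oxygen above 95%. ATG is a gold compound that inhibits thioredoxin reductase. With males (M) and females (F), this gave 16 groups of 3 mice, so that C3HM, C57BM, C3HF and C57BF were each present with saline or ATG and in room air or hyperoxia. No mouse carried a transgene or a deletion according to the labels, and every mouse received an injection. The saline groups rest on the labels, because the submitters' design text mentions an ATG injection for each mouse. Sex also rests on the labels, because the genes of the sex chromosomes are listed at 0 in every lung.

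Fatty acid binding proteins are small cytosolic proteins that fold into a barrel and hold a long-chain fatty acid inside it. They carry fatty acids from the plasma membrane to mitochondria, lipid droplets and the nucleus, where fatty acids are ligands of the peroxisome proliferator-activated receptors (PPARs). Each member is named after the tissue it was first studied in: Fabp1 in liver, Fabp3 in heart and skeletal muscle, Fabp4 in adipocytes, Fabp5 in epidermis and Fabp7 in brain, and in the lung Fabp4 and Fabp5 are also known from macrophages and endothelium.

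The 48 libraries differed in how much a few genes took up. Scgb1a1, the secretory protein of club cells, made up 10.4% to 30.2% of all FPKM in room air and 1.20% to 7.17% in hyperoxia, so each result was also computed after scaling by median ratios. The values give no read totals, so the depth of each library is unknown, and their low steps point to relative depths between 0.767 and 1.24 of the median, an approximate figure. C3H mice 6, 27 and 33 were singled out for the highest Fabp3 or Fabp4 levels, and also held many heart or fat transcripts. Results that rest on them are also given without them. Muscle and fat transcripts were high in C57BF mouse 37 too. Its skeletal muscle markers summed to 1097 FPKM and its adipocyte markers to 171 FPKM. That mouse was left out only in the runs that left out each mouse in turn. The labels name no batch, litter or date.

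Levels are FPKM, which is a fragment count divided by transcript length and by library size, so levels of different genes can be compared. Over all 48 lungs Fabp5 had the highest median at 50.1 FPKM and Fabp4 came next at 25.1 FPKM. The median of Fabp1 was 3.36 FPKM, but its values ran from 0 to 38.0. Fabp3 had a median of 0.561 FPKM and Fabp7 had one of 0.401 FPKM. Fabp4 and Fabp5 were above 0 in every lung, whereas Fabp1 was listed at 0 in 12 lungs, Fabp3 in 6 and Fabp7 in 13. A value of 0 in such a table can be a failed estimate as well as a missing transcript.

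The 5 genes lie on 4 chromosomes of GRCm38 (mm10, GENCODE M21), and each is a protein coding gene of 4 exons. Fabp1 is at chr6:71199827-71205023, Fabp3 at chr4:130308595-130315463 and Fabp7 at chr10:57784881-57788450, all on the forward strand. Fabp5, at chr3:10012548-10016607 on the forward strand, and Fabp4, at chr3:10204088-10208576 on the reverse strand, belong to a cluster of 5 family genes on chromosome 3 that also holds Pmp2, Fabp9 and Fabp12. The coding sequences of the 5 genes were 57.8% (Fabp1 and Fabp4) to 68.0% (Fabp3 and Fabp7) identical in pairwise alignments. The first 60 coding bases of Fabp3, Fabp4 and Fabp7 are shown because these 3 are among the most alike, with capitals at the 37 bases that all 3 share.
Fabp3: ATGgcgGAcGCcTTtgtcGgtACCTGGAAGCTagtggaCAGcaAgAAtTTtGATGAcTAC
Fabp4: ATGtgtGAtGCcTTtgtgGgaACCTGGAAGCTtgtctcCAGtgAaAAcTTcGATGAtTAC
Fabp7: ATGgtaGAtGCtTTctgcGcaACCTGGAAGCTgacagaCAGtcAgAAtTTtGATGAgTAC
The longest run common to the coding sequences of any 2 of the 5 genes was 20 bases.

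Pseudogenes share much longer stretches. Fabp3-ps1, a processed pseudogene at chr10:86731987-86732388 on the reverse strand, was identical to the Fabp3 coding sequence at 396 of 399 bases. The start of both is shown, with lower case at the single base that differs, A40T, counted from 1 at the first coding base.
Fabp3: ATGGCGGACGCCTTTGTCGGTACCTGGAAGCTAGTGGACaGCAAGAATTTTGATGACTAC
Fabp3-ps1: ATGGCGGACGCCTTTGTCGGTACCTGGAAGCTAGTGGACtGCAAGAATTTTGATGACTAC
Of the 794 different 30-base sequences in Fabp3 transcripts, 403 (50.8%) also occur in transcripts of other genes, 283 of them in Fabp3-ps1. For Fabp5 the shared portion was 337 of 3591 (9.38%), mostly with pseudogenes. For Fabp4 it was 14 of 4505 (0.311%), and for Fabp1 and Fabp7 it was 0. The level of Fabp3 is therefore the least certain of the 5, since reads may have been divided between it and its pseudogene.

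**Figure D1:**
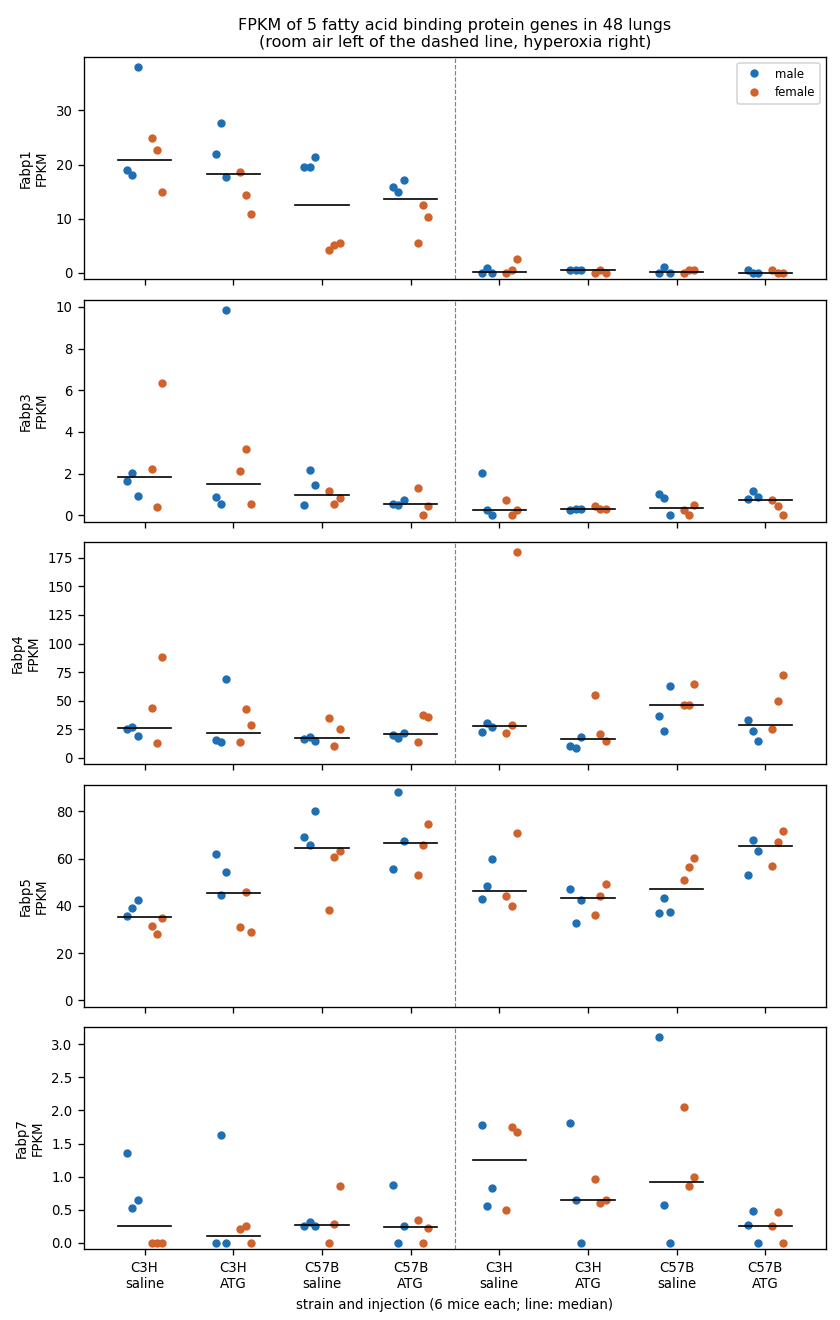
FPKM (vertical axes, linear) of the 5 genes in each of 48 lungs, by strain and injection, with males and females in different colours, lines at the median of 6 mice and room air to the left of the dashed line. Fabp1 ran from 4.25 to 38.0 FPKM in room air and from 0 to 2.47 FPKM in hyperoxia, while the other 4 genes overlapped between the 2 kinds of air.

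Fabp1, the liver type, was present in every room air lung and near or at 0 in every hyperoxia lung. In the 24 room air lungs the lowest, median and highest Fabp1 levels were 4.25, 17.4 and 38.0 FPKM. In the 24 hyperoxia lungs they were 0, 0.219 and 2.47 FPKM, and 12 of these lungs were listed at 0. The highest hyperoxia value, in C3HF mouse 33 given saline, was below the lowest room air value, in a C57BF mouse given saline. Among all genes tested, 1.03% were lower in every hyperoxia lung than in every room air lung, and nothing is read from this for Fabp1, which was picked by this contrast.

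The difference in Fabp1 held in both strains and with both injections. With saline, the fitted difference between hyperoxia and room air on the log2(FPKM + 1) scale was -3.97 in C3H (SE 0.28) and -3.13 in C57B (SE 0.28). With a pseudocount of 0.1 in place of 1, the difference over both strains went from -3.55 to -5.63, so its size depends on how values near 0 are treated. Scaling by median ratios gave -3.59. With ATG, the room air levels of Fabp1 ran from 5.42 to 27.7 FPKM and the hyperoxia levels from 0 to 0.573 FPKM.

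Marker levels of other cells also differed between room air and hyperoxia, in both directions. The sum of 12 alveolar macrophage markers was higher in hyperoxia, with medians of 795 FPKM in room air and 1347 FPKM in hyperoxia. The summed level of 10 alveolar type 2 markers, such as surfactant protein C, was between 25209 and 50599 FPKM in room air and between 5924 and 22351 FPKM in hyperoxia. Hepatocyte markers were low in all lungs, with sums of 8 genes between 0.834 and 25.5 FPKM in room air and between 0.571 and 3.95 FPKM in hyperoxia, and Apoc3 was at 0 in all hyperoxia lungs. The part of these cells in the Fabp1 difference was not tested, and in whole lung fewer cells of a type and less RNA per cell cannot be told apart.

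In room air, Fabp1 was lowest in C57B females. The 6 C57BF lungs had Fabp1 levels of 4.25, 5.13 and 5.60 FPKM with saline and 5.42, 12.6 and 10.3 FPKM with ATG. The 6 C57BM lungs had 19.6, 19.5 and 21.4 FPKM with saline and 15.9, 14.9 and 17.2 FPKM with ATG. Every C57BM lung was above every C57BF lung, a pattern found for 2.28% of genes in the direction of males. The means were 18.1 ± 2.50 FPKM in C57BM and 7.21 ± 3.38 FPKM in C57BF (SD, n = 6 each).

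This difference of 1.30 on the log2(FPKM + 1) scale (SE 0.20) passed the test, with an adjusted p of 0.000827 in limma, where 5.45% of genes passed and 2.4% were higher in males. An exact permutation test of Fabp1, two-sided, with sex exchanged within each injection, gave p = 0.005, which is the smallest that its 400 arrangements allow. In the same lungs the summed level of 12 alveolar macrophage markers was 847 to 1099 FPKM in C57BM and 453 to 883 FPKM in C57BF, and Chil3, Ear2 and Ear1 of these passed as higher in males. The sums of 10 type 2 cell markers had medians of 45850 FPKM and 37124 FPKM, with none passing, and the part of these cells in the Fabp1 difference was not tested. The comparisons of sex within 1 strain or within 1 kind of air were chosen after the values had been seen. In C3H the means in room air were 23.7 ± 7.91 FPKM in males and 17.7 ± 5.39 FPKM in females (SD, n = 6 each), and the difference of 0.40 (SE 0.20) did not pass (limma, adjusted p = 0.182), where 8.75% of genes passed. The sex difference of Fabp1 was not shown to differ between strains, as the interaction of sex and strain in room air was -0.90 (SE 0.28) with an adjusted p of 0.106 in limma, where 1.06% of genes passed.

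**Figure D2:**
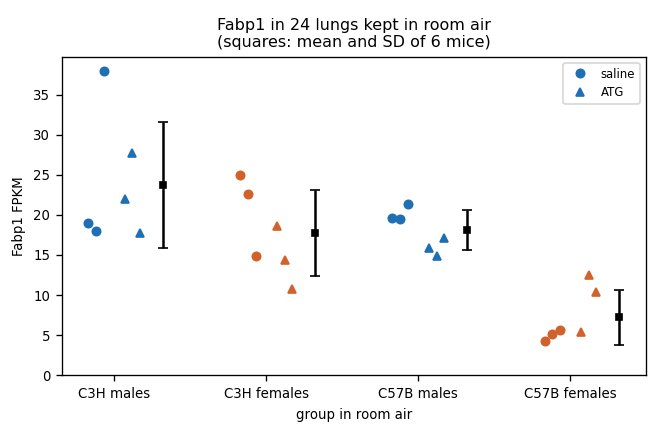
Fabp1 FPKM (vertical axis, linear from 0) in the 24 room air lungs by strain and sex, with circles and triangles for the 2 injections and squares with bars for the mean and SD of 6 mice. C57B females lie between 4.25 and 12.6 FPKM, below all C57B males, which lie between 14.9 and 21.4 FPKM.

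Over both strains and both injections, Fabp1 in room air was higher in males, with 20.9 ± 6.32 FPKM against 12.5 ± 6.97 FPKM (SD, n = 12 each). The difference of 0.85 (SE 0.17) had an adjusted p of 0.00110 in the limma fit of all 48 mice, in which 14.5% of genes passed and 4.3% were higher in males. In hyperoxia the difference was -0.02 (SE 0.17, adjusted p = 0.978, limma), with Fabp1 close to 0 in both sexes, and 3.65% of genes passed. The interaction of sex and air was -0.86 (SE 0.24, adjusted p = 0.0366, limma). With Fabp1 near 0 in hyperoxia, this interaction restates the room air difference and is no separate result. It did not pass with a pseudocount of 0.1 (adjusted p = 0.436) or with no filter on low values (adjusted p = 0.0598), and the room air difference in the same fit did not pass with a pseudocount of 0.1 either (adjusted p = 0.187).

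By strain, Fabp1 in saline and room air was 14.9, 20.8 and 38.0 FPKM in C3H and 4.25, 12.5 and 21.4 FPKM in C57B (lowest, median and highest of 6). The fitted difference of C3H minus C57B was 1.03 (SE 0.19), and the strains overlapped through the C57B males. The difference of Fabp1 between ATG and saline in room air was -0.04 over both strains (SE 0.14), and in hyperoxia too few lungs reached the minimum level for a fit. In the order of the 8 conditions by median, the 4 room air conditions came first, from C3H with saline at 20.8 FPKM to C57B with saline at 12.5 FPKM, and neighbours among them overlapped. The 4 hyperoxia conditions followed, with medians from 0.497 to 0 FPKM, and they overlapped too.

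The promoter of Fabp1 is shown because Fabp1 is a known PPAR target in liver, with the motifs found in capitals. It is the 250 bases before the RefSeq start (GRCm38.p6, chr6:71199629-71199878, forward strand), which lies inside the GENCODE span of the gene.
Fabp1 promoter: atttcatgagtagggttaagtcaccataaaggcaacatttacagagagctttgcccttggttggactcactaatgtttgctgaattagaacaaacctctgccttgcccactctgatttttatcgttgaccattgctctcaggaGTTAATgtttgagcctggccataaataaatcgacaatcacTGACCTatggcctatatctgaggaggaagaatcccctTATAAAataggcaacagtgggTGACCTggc
TATAAA, the TATA box, starts 30 bases before the start and is held by 12.4% of 32851 promoters of this length. AGGTCA, a half-site of nuclear receptors, occurs on the reverse strand 67 and 9 bases before the start, and 14.0% of promoters hold it. GTTAAT, a half-site of hepatocyte nuclear factor 1, occurs 107 bases before the start, against 6.43% of promoters. Both strands were searched for exact matches only. The exact PPAR motif, in which AGGTCA is repeated after 1 base, was not in this window and is held by 0.0335% of promoters. An inexact repeat is present, however. The TGACCT printed 67 bases before the start is followed, after 1 base, by tggcct, which differs from TGACCT at 1 base.

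Among the genes most like Fabp1 over the 48 lungs were Hbb-bs, Hbb-bt, C130074G19Rik and Bnip3l. Pearson correlations of log2(FPKM + 1) were 0.95 for Hbb-bs, 0.94 for Hbb-bt, and 0.92 for the other two. Hbb-bs and Hbb-bt encode the adult beta globins of red cells. Once the mean of each of the 16 groups had been removed, the correlation of Fabp1 with Hbb-bs was 0.25 and that with Hbb-bt was 0.22, so the likeness is between groups, which share their air, more than between lungs of 1 group.

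Fabp3, the heart and muscle type, was low in most lungs and high in a few. In the 24 room air lungs its lowest, median and highest levels were 0, 0.909 and 9.86 FPKM, and in the 24 hyperoxia lungs they were 0, 0.315 and 2.03 FPKM. The highest Fabp3 values were 9.86 FPKM in C3HM mouse 6, given ATG in room air, and 6.36 FPKM in C3HF mouse 27, given saline in room air. The other C3HM mice of the first of these groups were at 0.883 and 0.525 FPKM, and the other C3HF mice of the second at 2.23 and 0.413 FPKM. Single lungs thus set the spread of Fabp3 within these groups.

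These mice also held the most transcripts of heart muscle. The summed level of 12 cardiac muscle markers, such as the atrial light chains Myl4 and Myl7, was 1775 FPKM in mouse 6 and 2450 FPKM in mouse 27, against a median of 308 FPKM in room air. The range was 32.4 to 2450 FPKM in room air and 15.9 to 137 FPKM in hyperoxia. The part of heart muscle in the Fabp3 values was not tested. The genes most like Fabp3 over the 48 lungs were the cardiac ryanodine receptor Ryr2 and the channel gene Kcnj3 (both r = 0.80), Lrrc2 (0.78), and Fabp3-ps1 and the cardiac myosin binding protein Mybpc3 (both 0.77). With group means removed these correlations were 0.78 for Ryr2, 0.75 for Kcnj3, 0.70 for Lrrc2, 0.63 for Fabp3-ps1 and 0.71 for Mybpc3.

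In saline mice the fitted difference of Fabp3 between hyperoxia and room air was -0.78 on the log2(FPKM + 1) scale (SE 0.24), and -1.94 with a pseudocount of 0.1. It was -0.99 in C3H and -0.57 in C57B (SE 0.34 each), and the C3H value was -0.69 without mouse 27. Fabp3-ps1 fell from a mean of 6.59 to 1.92 FPKM in the same mice, by 1.11 on the log2 scale (SE 0.35, adjusted p = 0.0102, limma). Of its 373 different 30-base sequences 283 also occur in Fabp3. Its reads may therefore come from Fabp3, and its p is no test independent of the picked gene. Fabp3 in saline and room air was 0.47 higher in C3H (SE 0.34) and 0.18 lower with ATG in room air (SE 0.30). Without mouse 27 the strain difference of Fabp3 was 0.18, and without mouse 6 the ATG difference was -0.40. The sex difference of Fabp3 over all mice was 0.16 (SE 0.18, adjusted p = 0.608, limma).

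Fabp4, the adipocyte type, was expressed in every lung and varied widely within groups. In the 24 room air lungs its lowest, median and highest levels were 10.2, 20.8 and 88.3 FPKM, and in the 24 hyperoxia lungs they were 8.19, 27.9 and 180 FPKM. The highest value of 180 FPKM came from C3HF mouse 33, given saline in hyperoxia, whose group also held values of 21.6 and 29.0 FPKM. C3HF mouse 27 (88.3 FPKM) and C3HM mouse 6 (69.2 FPKM), which led Fabp3, were also high for Fabp4.

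In C57B, Fabp4 in saline was higher in hyperoxia than in room air. The 6 C57B room air lungs held Fabp4 at 10.2, 17.2 and 34.9 FPKM (lowest, median and highest), and the 6 hyperoxia lungs at 23.4, 46.1 and 64.3 FPKM. In C3H the same values were 13.3, 26.2 and 88.3 FPKM in room air and 21.6, 27.9 and 180 FPKM in hyperoxia. The fitted difference was 1.22 in C57B and 0.27 in C3H (SE 0.45 each), and the difference between the strains was -0.95 (SE 0.63). Without mouse 33 the C3H difference of Fabp4 turned to -0.20, and without mouse 27 it was 0.57. With ATG in hyperoxia Fabp4 was lower than with saline, by 1.02 in C3H and 0.46 in C57B (SE 0.43 each), with ranges of 8.19 to 54.6 FPKM and of 14.9 to 72.5 FPKM. Without mouse 33 the C3H difference was -0.55. In the same comparison 5 of 12 alveolar macrophage genes (Ear2, Ear1, Chil3, Siglecf and Mrc1) and 3 of 12 capillary endothelium genes (Ptprb, Tek and Pecam1) fell, where 5.47% of genes passed, and their part in the Fabp4 values was not tested. In room air the difference of Fabp4 between ATG and saline was 0.03 (SE 0.31), and it was -0.15 without mouse 6 and 0.18 without mouse 27.

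By sex, the difference of Fabp4 did not pass the test. Over all mice the lowest, median and highest levels of Fabp4 were 8.19, 20.8 and 69.2 FPKM in 24 males and 10.2, 35.4 and 180 FPKM in 24 females. The difference of -0.61 for males minus females (SE 0.22) had an adjusted p of 0.0690 in limma, where 12.4% of genes passed, 4.84% higher and 7.56% lower in males. Leaving out any one of mice 6, 26, 31, 38 or 40 brought the adjusted p in limma to between 0.0280 and 0.0488, so the call depends on single lungs. In the other direction, the difference shrank to -0.49 without mouse 33, while it was -0.70 without mouse 6. The difference of Fabp4 was -0.37 in room air (adjusted p = 0.451, limma) and -0.84 in hyperoxia (adjusted p = 0.132, limma), and the interaction of sex and air was -0.46 (adjusted p = 0.571, limma). The room air difference was -0.56 without mouse 6 and -0.22 without mouse 27, and the hyperoxia difference was -0.60 without mouse 33.

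Adipocyte transcripts varied together with Fabp4 within groups. With group means removed, Fabp4 correlated over the 48 lungs with Adipoq and Car3 (both 0.89), Retn (0.86), Cfd (0.84) and Tmem45b (0.83), where Adipoq, Retn and Cfd encode the adipocyte hormones adiponectin, resistin and adipsin. Without removing the group means the closest genes were Tmem45b (0.68), Mrap, Sbk3 and Plin4 (each 0.66) and Hspb7 (0.65). The summed level of 12 adipocyte markers was 218 FPKM in mouse 33, 174 FPKM in mouse 27 and 138 FPKM in mouse 6. It ran from 14.7 to 174 FPKM in room air and from 4.57 to 218 FPKM in hyperoxia. By sex, its median was 29.8 FPKM in males and 92.1 FPKM in females in room air, and 13.1 FPKM and 16.7 FPKM in hyperoxia. In the 6 C57BF hyperoxia lungs, however, the sums were only 8.06 to 26.4 FPKM while Fabp4 was 25.3 to 72.5 FPKM. The share of Fabp4 that came from adipocytes was not tested.

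**Figure D3:**
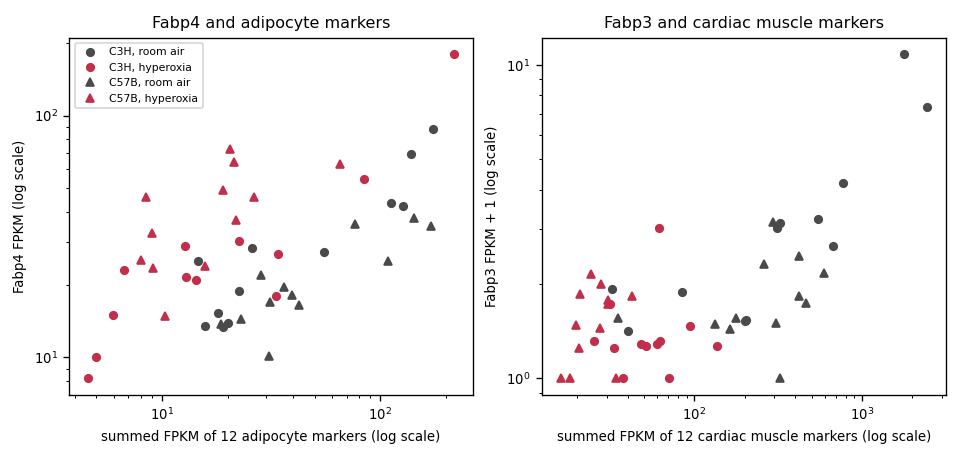
Fabp4 FPKM against the summed FPKM of 12 adipocyte markers, and Fabp3 FPKM + 1 against that of 12 cardiac muscle markers, in 48 lungs (all axes log), by strain and air. The highest Fabp4 value, 180 FPKM, is at the highest adipocyte sum of 218 FPKM, and the 2 highest Fabp3 values are at cardiac sums of 1775 and 2450 FPKM.

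Fabp5, the epidermal type, was above 0 in every lung and ran from 28.0 to 88.3 FPKM. In saline and room air it was higher in C57B, with 38.3, 64.5 and 80.2 FPKM (lowest, median and highest of 6), than in C3H, with 28.0, 35.2 and 42.7 FPKM. The fitted difference of C3H minus C57B was -0.80 (SE 0.13), and the ranges overlapped only through C57BF mouse 37, at 38.3 FPKM. With ATG in hyperoxia the strains did not overlap, with Fabp5 at 32.6 to 49.2 FPKM in C3H and at 52.9 to 71.7 FPKM in C57B. Among all genes 6.07% were lower in every C3H lung in this condition. In saline and room air 7 of 10 type 2 cell genes were lower in C3H, where 7.87% of all genes were lower. Of 12 macrophage genes 5 were higher in C3H, where 3.92% of all genes were higher, and 1, Chil3, was lower. The part of these cells in the strain difference of Fabp5 was not tested.

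With saline, Fabp5 was higher in hyperoxia in C3H of both sexes and lower in hyperoxia in C57B males, but not in C57B females. In saline C3HM lungs it was 35.5, 39.2 and 42.7 FPKM in room air and 42.7, 48.4 and 59.96 FPKM in hyperoxia. In saline C57BM lungs Fabp5 was 69.0, 65.9 and 80.2 FPKM in room air and 37.1, 43.2 and 37.3 FPKM in hyperoxia. All 3 C57BM lungs in hyperoxia were therefore below all 3 in room air, and all 3 C3HM lungs in hyperoxia were above the room air lungs, the closest of them barely. Saline C57BF lungs held 38.3, 60.8 and 63.1 FPKM of Fabp5 in room air and 50.9, 56.5 and 60.2 FPKM in hyperoxia, with means of 54.1 and 55.9 FPKM. Saline C3HF lungs held 31.5, 28.0 and 34.9 FPKM in room air and 44.4, 40.1 and 70.9 FPKM in hyperoxia, so these did not overlap. Over both sexes the fitted difference of Fabp5 was 0.50 in C3H and -0.39 in C57B (SE 0.14 each), and the difference between the strains was 0.89 (SE 0.19). It was 0.70 when lungs were scaled by median ratios, while the median of all genes was 0.15 for this interaction.

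In hyperoxia, Fabp5 with ATG was higher than with saline in C57B and lower in C3H. C57BM lungs with ATG held 52.9, 68.1 and 63.3 FPKM of Fabp5, above the 37.1 to 43.2 FPKM of the saline lungs, and C57BF lungs held 56.9, 67.1 and 71.7 FPKM against 50.9, 56.5 and 60.2 FPKM with saline. The fitted difference of ATG minus saline in hyperoxia was 0.42 in C57B and -0.26 in C3H (SE 0.13 each). The C3H value was -0.14 without mouse 33. In room air the difference was 0.11 in C57B and 0.29 in C3H (SE 0.15 each). Without mouse 37 the C57B value was close to 0, and without mouse 29 the C3H value was 0.19. In the order of 8 conditions by median, the 3 highest Fabp5 levels were C57B with ATG in room air (66.6 FPKM), C57B with ATG in hyperoxia (65.2 FPKM) and C57B with saline in room air (64.5 FPKM). The ranges of these 3 overlapped, and the lowest condition was C3H with saline in room air.

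The sex difference of Fabp5 depended on the air. In room air the lowest, median and highest Fabp5 levels were 35.5, 58.9 and 88.3 FPKM in 12 males and 28.0, 42.1 and 74.8 FPKM in 12 females. In hyperoxia they were 32.6, 45.1 and 68.1 FPKM in males and 36.2, 53.7 and 71.7 FPKM in females. The sexes overlapped in both kinds of air, with the median higher in males in room air and higher in females in hyperoxia.

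The interaction of sex and air for Fabp5 was -0.54 (SE 0.14) with an adjusted p of 0.0261 in limma, where 4.16% of genes passed and 1.27% did so in this direction. It passed under each alternative run, including those that left out 1 mouse. Males minus females was 0.36 in room air (SE 0.10, adjusted p = 0.0129, limma) and -0.17 in hyperoxia (SE 0.10, adjusted p = 0.375, limma). Within strains in room air the difference in Fabp5 was 0.46 in C3H (SE 0.15, adjusted p = 0.0534, limma) and 0.27 in C57B (SE 0.15, adjusted p = 0.301, limma), neither of which passed.

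Alveolar macrophage markers moved with sex and air as well. Their summed level over 12 genes had a median of 878 FPKM in males and 667 FPKM in females in room air, and of 1257 FPKM and 1733 FPKM in hyperoxia. For 6 of the 12 macrophage genes, Ear1, Chil3, Ear2, Marco, Mrc1 and Siglecf, the interaction of sex and air was below 0 and passed, as it was for Fabp5. Of all genes 4.16% passed and 1.27% did so in this direction. The part of macrophages in the Fabp5 values was not tested. The genes most like Fabp5 over the 48 lungs were Acot7 (r = 0.68), Mrpl27 and Gm10136 (both 0.67), and Hmgn2 and Lta4h (both 0.65). With group means removed, the correlations were 0.42 for Acot7 and 0.03 to 0.29 for the other 4.

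**Figure D4:**
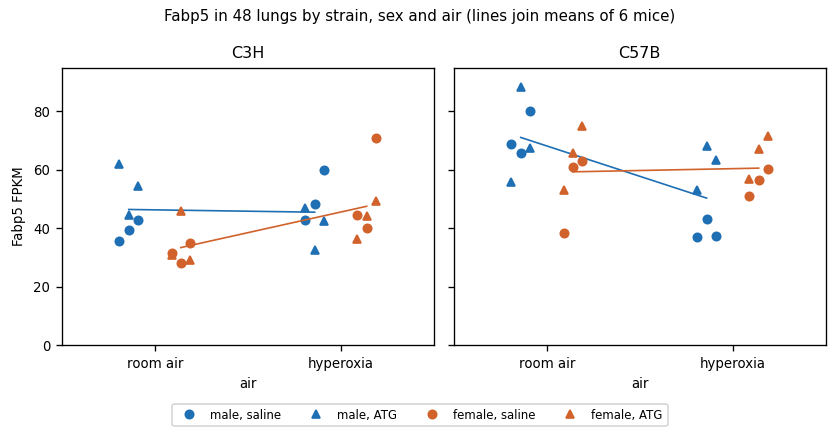
Fabp5 FPKM (vertical axis, linear from 0) in C3H and C57B lungs by air and sex, with symbols for the injection and lines joining the means of 6 mice. In C57B males the mean goes from 71.1 FPKM in room air to 50.3 FPKM in hyperoxia, and in C3H females from 33.4 to 47.5 FPKM.

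Fabp7, the brain type, was low throughout. In the 24 room air lungs it was listed at 0 in 9 and reached 1.63 FPKM, and in the 24 hyperoxia lungs it was at 0 in 4 and reached 3.10 FPKM. All 3 saline C3HF lungs in room air were at 0, so no fold is given for this group, which held 0.497, 1.75 and 1.67 FPKM of Fabp7 in hyperoxia. In saline mice the median was 0.276 FPKM in room air and 0.921 FPKM in hyperoxia, and it was 0.469 FPKM in hyperoxia with ATG. The fitted difference of Fabp7 between hyperoxia and room air with saline was 0.65 (SE 0.19), and that of ATG minus saline in hyperoxia was -0.52 (SE 0.21).

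Fabp7 is a marker of radial glia and Schwann cell precursors. The summed level of 8 Schwann cell and glia markers was 11.4 to 21.8 FPKM in room air and 16.1 to 25.0 FPKM in hyperoxia, and their part in the Fabp7 values was not tested. Males minus females for Fabp7 over all mice was 0.09 (SE 0.13, adjusted p = 0.693, limma), and in room air alone too few lungs reached an FPKM of 1 for a fit within that air. The genes most like Fabp7 over the 48 lungs were 1200007C13Rik, with r = 0.61, A730049H05Rik and Has2, both 0.60, and Clec4d and F5, both 0.59.

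The 5 genes did not move as a unit. Over the 48 lungs the strongest pairwise correlations of log2(FPKM + 1) were 0.47 for Fabp1 with Fabp3 and -0.35 for Fabp1 with Fabp7. With group means removed they were -0.28 and 0.01, and the highest was 0.33, for Fabp3 with Fabp4. Fabp4 and Fabp5, which share the cluster on chromosome 3, correlated at 0.06 over the lungs and at 0.27 within groups. No interaction of sex with ATG passed for any of the 5 genes, nor for any gene in limma, although 1248 genes had an unadjusted p below 0.05 and 1 gene passed with no filter on low values. The interaction of sex with strain over all mice passed for 0.453% of genes and for none of the 5, with adjusted p from 0.356 for Fabp1 to 0.920 for Fabp4.

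Other members of the lipid binding protein family were mostly silent or lower in hyperoxia. Fabp9 was at 0 in all 48 lungs, and Fabp2, Fabp6, Pmp2 and Crabp2 stayed below 1 FPKM. Of the 5 members tested in saline mice, 4 fell with hyperoxia and none rose, where 60.1% of all genes passed and 28.3% fell. Crabp1, a carrier of retinoic acid, fell from 3.36 to 0.596 FPKM, a log2 difference of -1.28 (SE 0.14, adjusted p = 2.06e-07, limma), and Rbp7, a carrier of retinol, changed by -1.11. Rbp2 changed by -0.51 with an adjusted p of 0.0440 in limma, which did not pass with a pseudocount of 0.1, with no filter, without mice 27 and 33 (adjusted p = 0.0989) or without any of 17 single mice.

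Fabp12, a gene of the Fabp4 and Fabp5 cluster, was the only one of the 5 other family members tested that passed by sex over all mice. In this contrast 12.4% of all genes passed and 4.84% were higher in males, so nothing about the family is read from the count. Fabp12 was at 2.93 FPKM in males and 1.82 FPKM in females on average, a difference of 0.47 (SE 0.15, adjusted p = 0.0288, limma). The adjusted p of Fabp12 was 0.0608 without mice 6, 27 and 33 and 0.0510 with no filter on low values. Its difference between hyperoxia and room air was -0.41 (adjusted p = 0.0679, limma) and passed under median ratio scaling (adjusted p = 0.0358).

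Several genes that PPARs are known to drive rose with hyperoxia, while Fabp1 was lower. Of 15 PPAR receptor and target genes tested in saline mice, 8 rose, 7 did not pass and none fell, and those that rose include the receptors Pparg and Ppard and the coactivator Ppargc1a, where 31.8% of all genes rose, with a list median of 0.36 against 0.01 over all genes. Angptl4, an inhibitor of lipoprotein lipase, rose from 19.9 to 109 FPKM, by 2.45 on the log2 scale (SE 0.13, adjusted p = 6.24e-12, limma). Plin2, which coats lipid droplets, rose from 89.0 to 348 FPKM, by 1.93 (SE 0.10, adjusted p = 7.39e-12, limma). Pdk4, which restrains pyruvate oxidation, rose by 1.58.

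Genes of fatty acid uptake and oxidation moved in both directions, as all genes did. In the uptake, release and activation list, 4 of 16 tested genes (against 31.8% of all genes) rose and 7 (against 28.3%) fell. The fatty acid transport protein Slc27a3 fell by 1.22 and Gpihbp1, which anchors lipoprotein lipase to capillaries, fell from 206 to 124 FPKM, by 0.87. The triglyceride lipase Pnpla2 rose by 0.76, and the transporter Cd36 was at 406 FPKM in room air and 379 FPKM in hyperoxia (adjusted p = 0.622, limma). Of 18 mitochondrial oxidation genes 6 rose, such as Acadl (0.74) and Eci2 (0.67), and 6 fell, such as Hadh (-1.17) and Acadm (-0.58). Without mice 27 and 33 the falls were 3 rather than 6. With all mice both counts of oxidation genes were near the shares of all genes, so nothing about oxidation is read from them.

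**Figure D5:**
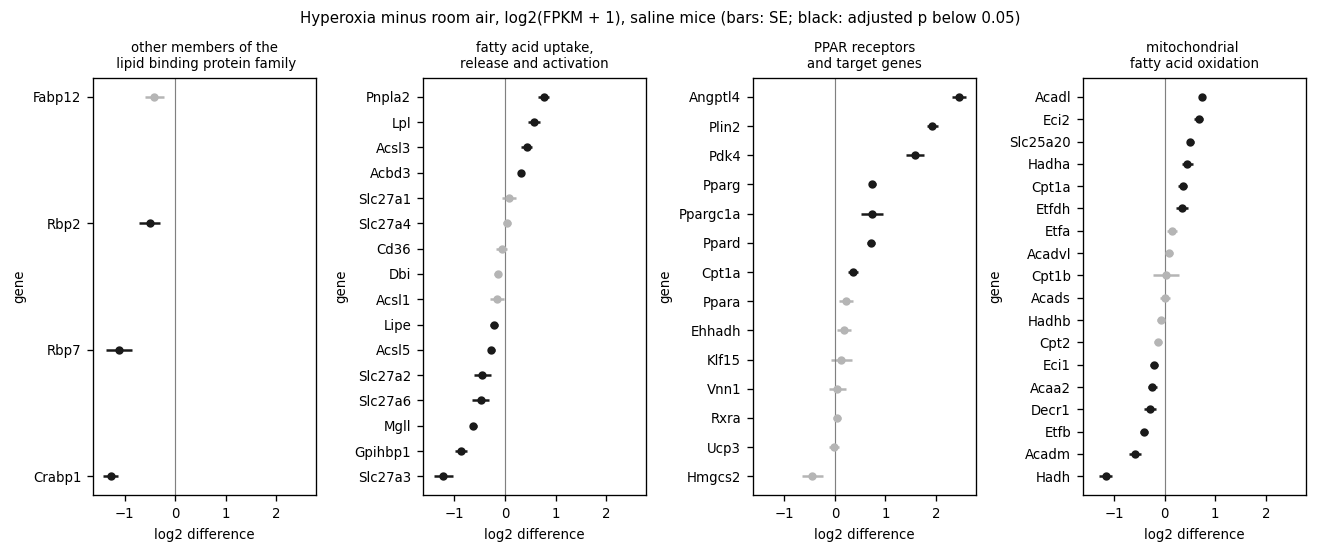
Differences between hyperoxia and room air on the log2(FPKM + 1) scale (horizontal axes, bars for SE) in 24 saline mice for genes among other family members, uptake, PPAR and oxidation genes, with black for an adjusted p below 0.05. Angptl4 at 2.45 and Plin2 at 1.93 lie farthest to the right among the PPAR genes, and each family member shown that passed lies left of 0.

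Marker lists of other cells were tested in the same saline mice, where 31.8% of all genes rose and 28.3% fell, so counts such as 1 of 3 or 3 of 7 are near the share of all genes. Cardiac muscle genes fell for 10 of 11 tested, for example Mb (-3.40) and Sln (-3.31), and skeletal muscle genes for 3 of 5. Adipocyte genes fell for 4 of 10, such as Car3 (-1.99) and Adrb3 (-1.45), and for 6 of 10 without mice 27 and 33. Fabp4, which was picked by this contrast, differed by 0.74 in the same mice, by 0.51 without mouse 33 and by 0.90 without mouse 27. In C3H alone the Fabp4 difference turned to -0.20 without mouse 33. The part of adipocytes in the Fabp4 difference was not tested. Capillary endothelium genes fell for 8 of 12, led by Aplnr at -3.25, and rose for 1. Alveolar macrophage genes rose for 9 of 12, such as Ctsk by 2.69 and Chil3 by 2.14, and fell for 3, with Ear1 at -2.25. Type 2 cell genes fell for 9 of 10, club and goblet cell genes for 3 of 7, proliferation genes for 7 of 8, glial genes for 2 of 3 and hepatocyte genes for 1 of 3, and of 2 basal cell genes 1 rose.

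In the comparisons of injection few genes of fatty acid handling passed. With ATG in room air only 3 of all genes passed (0.0185%, limma; 1077 had an unadjusted p below 0.05), among them the macrophage receptor Marco at 1.47. With ATG in hyperoxia, where 5.47% of genes passed, Gpihbp1 (-0.52), Acsl5 (0.20), Vnn1 (1.11) and Angptl4 (0.39) passed, while none of 18 oxidation genes and none of the 5 other family genes did. Acsl5 and Angptl4 did not pass under median ratio scaling, and Acsl5, Angptl4 and Gpihbp1 (adjusted p = 0.0585, limma) did not pass with no filter on low values. Between strains in saline and room air, where 11.8% passed, Crabp1 (1.19), Mgll (0.67), Gpihbp1 (0.56) and Hadhb (0.63) were higher in C3H, and Slc27a1 (-0.77), Lipe (-0.50), Vnn1 (-1.29), Angptl4 (-0.96), Eci1 (-0.48) and Acadl (-0.46) were lower. Acadl did not pass under median ratio scaling (adjusted p = 0.0761, limma).

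The difference between hyperoxia and room air with saline was itself different between strains for 11.5% of all genes, with 8.71% of all genes higher in C3H relative to C57B. Of the uptake genes 5 of 16 passed, all of them higher in C3H, namely Slc27a1 (1.08), Gpihbp1 (0.75), Lipe (0.73), Cd36 (0.70) and Acsl5 (0.51). Gpihbp1 and Cd36 did not pass under median ratio scaling (adjusted p of 0.146 for Gpihbp1 in limma) or with no filter on low values. Vnn1 (2.04) among 15 PPAR genes and Eci1 (1.08), Decr1 (0.92) and Hadh (0.92) among 18 oxidation genes passed in the same direction, and none of the 5 other family genes did.

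By sex over all mice, Acsl1, which activates fatty acids, was lower in males by 0.40 on the log2 scale, with 11.9 FPKM against 16.1 FPKM (SE 0.09, adjusted p = 0.00416, limma). Lipoprotein lipase Lpl (-0.27), Pnpla2 (-0.25), Klf15 (-0.53), Rxra (-0.18) and the triglyceride enzyme Dgat2 (-0.90) were also lower in males. Dbi (0.20), Etfb (0.23) and Hadh (0.21) were higher in males, and Hadh did not pass under several alternatives. Lpl did not pass under median ratio scaling (adjusted p = 0.0863).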

How the data were processed

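Poly(A) RNA of whole lung from 48 adult mice was sequenced. The deposited FPKM values were made by the authors with GSNAP (2012-07-20), SAMtools and Cufflinks on mm10, with 1 column per mouse. FPKM divides by library size and transcript length, so a gene that takes up much of a library lowers the others. Of 47561 genes, 20454 were at 0 in all mice, and Akap5 was left out for failed estimates in 7 mice. Genes of chromosomes X and Y and of the mitochondrion are listed at 0.

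Values were put on the log2(FPKM + 1) scale, and genes at 1 FPKM or more in at least 3 of the mice compared were fitted in R (4.3.3) with limma (3.58.1), with a mean per group of 3 and a variance trend. Adjusted p is Benjamini-Hochberg over all genes tested, two-sided, with a threshold of 0.05. Strain, injection and air contrasts used the groups compared, and contrasts of sex used all 48 mice or the room air mice. The members and the gene lists were chosen with earlier results of these data known, and contrasts by strain, injection and air are therefore given for the members without p. The limma p-values set each difference against the spread between mice within groups, with 1 library per mouse. Positions are from GENCODE M21 and promoters from RefSeq. Sequences were compared with Biopython (1.88).

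Genes named were all 5 members, the other family members above the filter, up to 4 members of every other list past the threshold with the largest change in each comparison, the most abundant member of each marker list, and the 5 genes most correlated with each member. Genes outside this rule (Cd36, and some macrophage genes named with Fabp5) were named after their values were seen. On simulated data for hyperoxia in saline mice, 200 genes among 15821 were changed by 1 on the log2 scale. Of these 89% were recovered, and 5.32% of calls were false. Changes of this size were recovered for 97% with sex over all mice and for 66.5% with sex by strain in room air. The simulation changed far fewer genes than the 60.1% that passed with hyperoxia, so its rates may not hold there. Alternatives were a pseudocount of 0.1, no filter, median ratio scaling, all 48 mice in 1 fit, no variance trend, and leaving out each mouse in turn. Mice 27 and 33, or 6, 27 and 33, were also left out, chosen after seeing the data. A few genes that the rule names are not reported here.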

Additional observations from a re-analysis of the deposited data

Results flagged for a closer look

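Within conditions of 6 mice, 1 lung stood far from the rest in 8 of 40 sets of values for the 5 genes, judged by its gap to the nearest lung as a share of the whole range, above the Dixon critical value for 6 values. Chance alone marks about 1 in 20 where values are normally distributed. FPKM values need not be, and each set held both sexes, so the share expected here is not known. For Fabp3 the lungs were C3H mouse 27 (0.6941, saline, room air), mouse 6 (0.7134, ATG, room air), mouse 7 (0.6437, saline, hyperoxia) and mouse 34 (0.6913, ATG, hyperoxia). For Fabp4 they were C3H mouse 33 (0.9442, saline, hyperoxia) and mouse 34 (0.7239, ATG, hyperoxia). For Fabp7 they were C3H mouse 5 (0.8438, ATG, room air) and C57B mouse 39 (0.6299, saline, room air). No set of Fabp1 or Fabp5 had such a lung.

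The sex difference differed between room air and hyperoxia for Fabp5, by -0.53692 on the log2(FPKM + 1) scale, and for Fabp1, by -0.8648, both by the interaction in limma. For Fabp1, which was near 0 in both sexes in hyperoxia, the interaction restates the room air difference and is no separate result. It did not hold with a pseudocount of 0.1 or with no filter on low values.

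In 2 settings the hyperoxia lungs lay above all room air lungs in one strain and below all of them in the other, each group holding separate mice. For Fabp5 in saline males the difference of C3H minus C57B was 1.1976, and for Fabp3 in ATG males it was -1.5621. Neither difference was tested within these groups of 3. For Fabp3 the C57B means were only 0.598 FPKM in room air and 0.931 FPKM in hyperoxia. Strain and air were used to pick the genes, and the share of all genes with this pattern was not computed, so nothing is read from it.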

How the results depend on the processing

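No paired analysis was possible because each mouse has its own number and the groups share none. With no filter on low values, 5 genes passed with ATG in room air (3 as reported), 31 for sex by strain over all mice (77), 1 for sex by ATG (0), 889 for sex in C3H in room air (1420) and 87 for sex by strain in room air (172). With all 48 mice in 1 fit, 2982 passed for strain (1832), 2994 for strain by hyperoxia (1880), 2246 for sex in C3H in room air and 470 for sex by strain in room air. Median ratio scaling gave 247 higher and 384 lower with ATG in hyperoxia (617 and 251), 913 and 1063 for strain by hyperoxia (1422 and 458), 258 and 389 for sex by hyperoxia (491 and 216), 873 and 576 for sex in C3H in room air (377 and 1043), and 940 higher of 1917 for strain (609 of 1832).

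Differences of members near 0 changed sign. For sex by ATG, Fabp7 was -0.48 with a pseudocount of 0.1 and -0.020 with scaling (0.0077). For males minus females, Fabp3 in C3H in room air was 0.0031 with scaling (-0.08), and with a pseudocount of 0.1 Fabp1 was 0.0069 in hyperoxia and 0.26 in C3H in hyperoxia (-0.02 in both).

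Leaving out 1 mouse gave 9479 to 10098 genes for hyperoxia, 3 to 32 for ATG in room air, 443 to 1096 for ATG in hyperoxia, 1306 to 4021 for strain and 1400 to 3242 for strain by hyperoxia. It gave 1723 to 3160 for sex over all mice, 31 to 1174 for sex by strain, 442 to 2016 for sex by hyperoxia and 0 to 39 for sex by ATG. For sex it gave 408 to 831 in C57B in room air (884 with all mice), 417 to 4929 in C3H in room air, 1699 to 4151 in room air, 240 to 1804 in hyperoxia and 5 to 2363 for sex by strain in room air.

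Signs turned in this way for Cldn5 with hyperoxia (-0.0998 to 0.024). For sex by ATG the ranges were -0.071 to 0.15 (Fabp1), -0.17 to 0.20 (Fabp3), -0.31 to 0.10 (Fabp4) and -0.11 to 0.15 (Fabp7). For sex by strain, Fabp4 ran from -0.31 to 0.10 over all mice and from -0.33 to 0.34 in room air, and Fabp3 from -0.73 to 0.013 in room air. For sex, Fabp3 ran from -0.53 to 0.21 in C3H in room air and from -0.16 to 0.21 in room air, and Fabp1 from -0.11 to 0.11 in hyperoxia. Within hyperoxia, C3H ranges were -0.22 to 0.23 (Fabp1), -0.14 to 0.26 (Fabp3), -0.13 to 0.072 (Fabp5) and -0.29 to 0.079 (Fabp7), and C57B ranges were -0.18 to 0.078 (Fabp1) and -0.41 to 0.10 (Fabp7). The cause of these changes was not tested. Depth is unknown, so values below 1 FPKM, as for Fabp7 and for Fabp1 in hyperoxia, carry no counting interval.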
